A study of Mus musculus with 14 samples.

Results

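The replication-dependent histone genes were described in total RNA of activated CD8 T cells, as the genes whose listed symbol begins with Hist1h, Hist2h, Hist3h or Hist4h. This rule, which uses names and no measured value, found 63 of the 15036 genes listed: 63 of 14732 in cells stimulated without IFN-beta and 37 of 12843 in cells stimulated with it. By class they were 5 H1, 17 H2A, 16 H2B, 12 H3 and 13 H4 genes. The H2B count includes Hist3h2bb-ps, which is annotated as a processed pseudogene. The 26 genes listed only without IFN-beta held at most 3 reads in any library.

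The study compared wild-type C57BL/6 mice with mice of the same strain labelled Morrbid-/-, which lack a long noncoding RNA gene; how much of the gene is missing is not stated. Naive CD8 T cells, the precursors of cytotoxic T cells, were sorted from spleen by high CD62L and low CD44 and cultured for 6 h with antibodies to CD3, bound to the plate, and to CD28, in solution, at 1 µg/mL each, in place of antigen and costimulation. Every group had these antibodies, and 2 of the 4 groups also had 20 ng/mL of the type I interferon IFN-beta. Each genotype had 3 libraries without IFN-beta and 4 with it.

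Replication-dependent histone genes encode the proteins that package newly made DNA, and dividing cells switch most of them on as DNA is copied. Their messages are the only cellular mRNAs that usually end in a conserved stem-loop in place of a poly(A) tail; the stem-loop binding protein, encoded by Slbp, recognises it. Because poly(A) selection loses such messages, total RNA libraries can hold them, although some histone genes also give polyadenylated transcripts. H2A, H2B, H3 and H4 form the nucleosome core, and H1 binds the DNA between cores.

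The stem-loop is what marks these messages, so it is shown for the genes the results turn on. Capitals mark the 16 bases of the stem-loop, read 5′ to 3′ as DNA from the GENCODE vM21 transcripts (GRCm38):
Hist1h1c: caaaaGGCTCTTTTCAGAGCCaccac
Hist1h1e: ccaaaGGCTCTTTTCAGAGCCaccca
Hist3h2a: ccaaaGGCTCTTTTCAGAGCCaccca
Hist2h2ac: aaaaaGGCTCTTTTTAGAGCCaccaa
Hist2h4: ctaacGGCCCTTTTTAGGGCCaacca
Hist1h4m: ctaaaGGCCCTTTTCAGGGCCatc
The H1 genes and Hist3h2a carried the form found in 26 members, Hist1h4m the form of 7 H4 genes, and Hist2h2ac a form of its own. The pattern GGNNCTTTTNAGNGCC was found in the annotated transcripts of 41 of the 63 members, against 55 of all 141767 GENCODE transcripts (0.039%). No match was found for Hist2h2bb or Hist2h2be, which says only that these letters are not in their annotated transcripts. Annotated transcripts ran on past the stem-loop by 840 bases in Hist1h1c, 1643 in Hist3h2a and 1257 in Hist2h4, but by 57 in Hist2h2ac.

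Hist2h2ac and its neighbour Hist2h2be, an H2A and an H2B gene, start back to back on chromosome 3 with 191 bases between them, 1 of 11 such divergent pairs among the members. These bases are shown because the data below bear on both genes. They lie at chr3:96220881-96221071 (GRCm38.p6, from RefSeq) and are read on the minus strand, toward Hist2h2ac. Capitals mark CCAAT, its reverse complement ATTGG, and TATAAA:
Hist2h2ac and Hist2h2be: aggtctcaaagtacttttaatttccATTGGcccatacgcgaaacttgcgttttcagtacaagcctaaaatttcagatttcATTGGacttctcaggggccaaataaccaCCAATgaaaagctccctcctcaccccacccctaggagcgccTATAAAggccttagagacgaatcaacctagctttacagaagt
The stretch held CCAAT 3 times over both strands and TATAAA 1 time. In windows of 300 bases around the start, CCAAT on either strand was found for 48 of the 57 members with a promoter window in the RefSeq table (84.2%) and for 37.4% of 32851 promoters. TATAAA was found for 57.9% of those members and 13.6% of all promoters, and the octamer ATTTGCAT for 21.1% and 1.7%. All 12 octamer matches were in H2A and H2B genes, 6 in each class. A match is a description of the letters and not a binding site.

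Libraries without IFN-beta held 1747634 to 2963149 reads and those with it 5788070 to 7355337. All members together took 182 to 269 RPM (reads scaled to a common library total) without and 127 to 188 with IFN-beta. Levels with and without IFN-beta come from tables normalized separately and are set side by side only. Without IFN-beta, Morrbid (listed as Gm14005) was at 1.53 to 4.16 normalized counts in wild type and 5.24 to 7.16 in Morrbid-/- libraries, from at most 7 reads in any. It was thus not lower where the label gives its loss, and with IFN-beta it was not analysed here. Directions are given as labelled. The CD8 and CD3 chains and other CD8 T cell markers were all tested (9 of 9 in each table). With IFN-beta 2 of the 9 were called higher in Morrbid-/-, beside 5.25% of all genes tested. They were Ccr7 (0.51) and Lef1 (0.52), with limma adjusted p = 0.000168 and 7.59e-05. The other 7 were not called, and the median log2 change of the list, Morrbid-/- minus wild type, was -0.07. In any library the erythroid list summed to at most 1.04 normalized counts, the NK list to 4.88, the myeloid and dendritic list to 14.3, the CD4 T list, with Cd4 itself not in the tables used, to 19.2, and the B cell list to 28.4.

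Few members were measured well. Of the 63 members without IFN-beta, 44 held at most 5 reads in every library and 7 had no read, and 7 passed the filter on low values, a mean of 10 normalized counts. Of the 37 with IFN-beta, 14 held at most 5 reads in every library and 9 passed. Hist1h1c, the gene of the linker histone H1.2, took 33.3% of the summed mean of all members without and 47.1% with IFN-beta. With the next 3 genes the share was 69.5% (Hist2h2ac, Hist1h1e and Hist3h2a) and 81.6% (Hist3h2a, Hist2h2ac and Hist1h1e). H3 genes gave 3.91% and 2.32% of the summed mean, and no H3 gene passed the filter in either table.

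Levels between genes were compared per kilobase of gene, with the RefSeq span as the length of the genes named here. Without IFN-beta, Hist1h1c stood at 290 normalized counts per kilobase in wild type, Hist2h2ac at 250, Hist2h2bb at 69.1, Hist3h2a at 65.6 and Hist1h1e at 49.0. With IFN-beta the order was Hist1h1c at 691, Hist3h2a at 413, Hist2h2ac at 145, Hist1h1e at 77.7 and Hist2h4 at 45.4. Both orders depend on the length used. GENCODE exons are longer than the span for Hist1h1c (1560 against 725 bases), Hist3h2a (2146 against 508) and Hist1h1e (1930 against 782). For Hist2h2ac they are 520 against 468. With exon lengths Hist2h2ac would stand above Hist1h1c without IFN-beta and above Hist3h2a with it. Side by side, Hist3h2a was at 11.4 to 14.8 RPM without and 22.6 to 33.9 with IFN-beta, and Hist2h2ac at 41.1 to 67.5 RPM without and 4.66 to 20.1 with it. These ranges do not overlap, but the difference was not tested. RPM does not use the separate normalization, yet its totals hold mitochondrial 16S rRNA, at 11.6% to 18.9% of reads without and 9.05% to 12.0% with IFN-beta. Depth also differed between the settings.

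**Figure D1:**
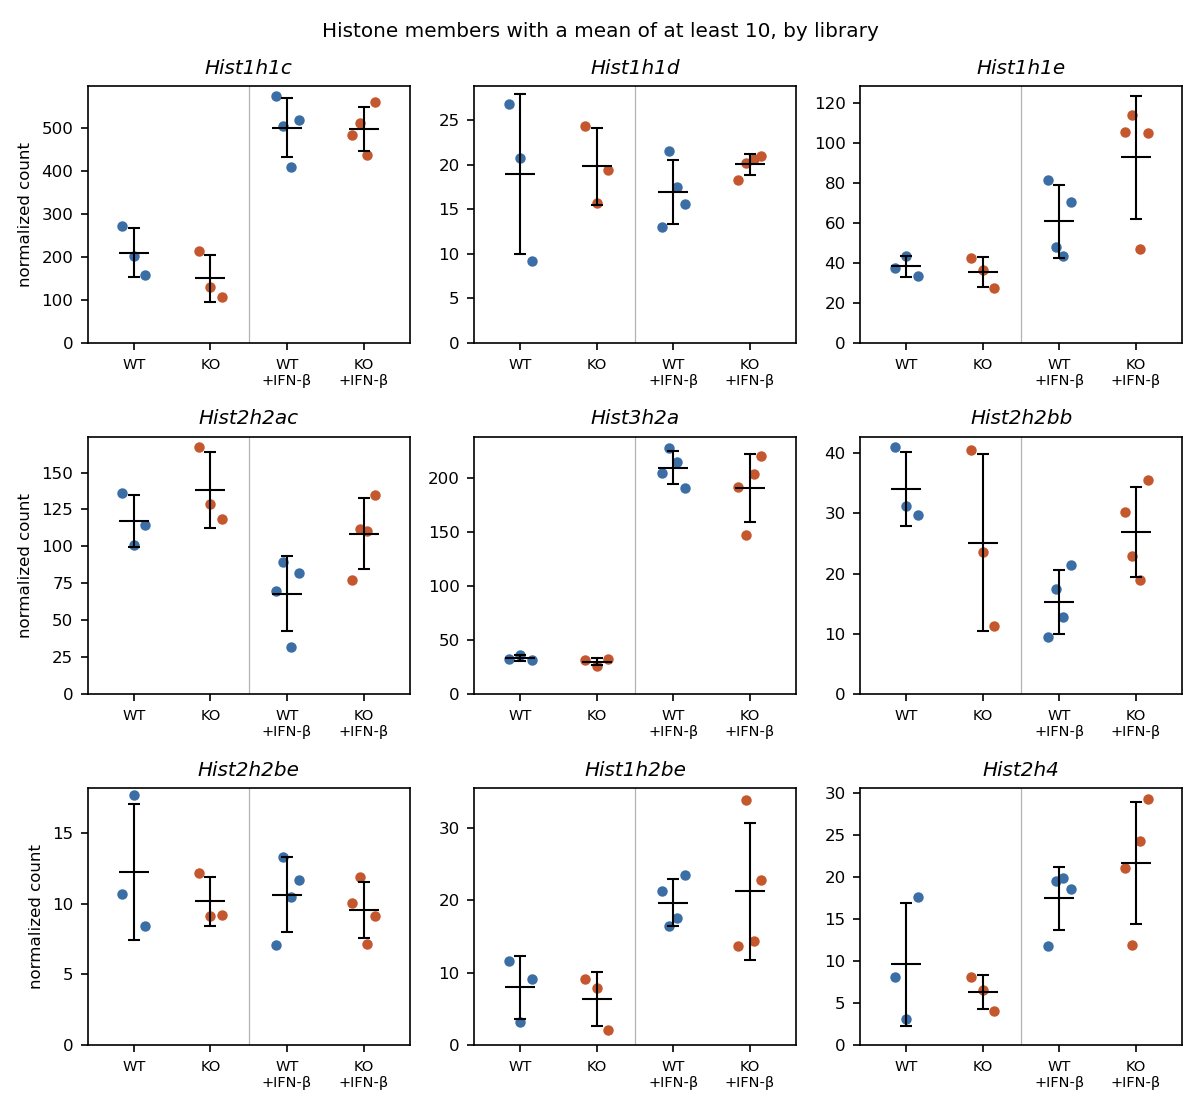
Normalized counts (y axis, from 0) of the 9 members that passed the filter in at least 1 table, for wild-type (WT) and Morrbid-/- (KO) libraries without and with IFN-beta. Points are libraries, and bars are the mean and SD of 3 or 4 libraries; the genotypes overlap in every panel, and Hist2h2ac with IFN-beta runs from 31.5 to 89.1 in wild type and from 77.0 to 135 in Morrbid-/-.

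Without IFN-beta, no histone gene passed the main test between genotypes, which has no replicate block. Of the 7 members tested, 0 were called higher and 0 lower (limma adjusted p under 0.05), beside 0.635% of the 9290 genes tested. Their log2 changes, Morrbid-/- minus wild type on the log2(normalized count + 1) scale, had a median of -0.14, against -0.01 over all genes tested; 2 were positive and 5 negative. In none of the 7 did the genotypes separate, beside 10.9% of all genes tested. At an unadjusted p under 0.05, 1 member stood out, Hist1h1c.

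Hist1h1c (chr13:23738807-23739531) held 272, 202 and 157 normalized counts in wild type and 213, 130 and 107 in Morrbid-/- libraries. The Morrbid-/- libraries were mostly lower, but the highest of them lay above 2 of the 3 wild-type ones. Group means of 210 ± 57.6 and 150 ± 55.6 (SD, n = 3 per genotype) differed on the log2 scale by -0.51 (SE 0.19; adjusted p = 0.589, limma). The value passed without Morrbid-/- replicate 1 (-0.79, limma adjusted p = 0.00383). It passed as well with the replicate number as a block, as given at the end. It also passed with edgeR on recovered reads and no filter (-0.47, adjusted p = 0.0461, beside 0.623% of all genes called), but not with edgeR on the filtered genes (adjusted p = 0.672) or DESeq2 (adjusted p = 1.00).

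Mitochondrial 16S rRNA, as a share of all reads, was highest in the libraries where the histone total was highest. In wild type the share was 18.1%, 16.01% and 12.5%, and in Morrbid-/- libraries 18.9%, 12.8% and 11.6%. All members together held 264, 214 and 224 RPM in the first and 269, 208 and 182 RPM in the second. The other wild-type libraries ran the opposite way, at 16.01% with 214 RPM and 12.5% with 224 RPM. The library with the highest share in each genotype also had the most Hist1h1c. With that share as a covariate the log2 difference of Hist1h1c was -0.37 (limma adjusted p = 0.158), against -0.51 (adjusted p = 0.589) without it. The part of the 16S share in the histone values was not tested.

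The other members tested without IFN-beta overlapped between genotypes. Hist2h2bb, an H2B gene, held 41.1, 31.2 and 29.8 in wild type and 40.5, 23.6 and 11.3 in Morrbid-/-, differing by -0.58 on the log2 scale (SE 0.33; limma adjusted p = 0.868). Hist2h2ac, an H2A gene, held 136, 101 and 115 against 167, 128 and 119, a difference of 0.23 (SE 0.15; adjusted p = 0.905). Its partner Hist2h2be held 10.7, 17.7 and 8.41 against 12.2, 9.17 and 9.21, so the back-to-back pair leaned in opposite directions by amounts within their spread (-0.20, SE 0.38; limma adjusted p = 0.975). Hist3h2a was the steadiest, at 33.3 ± 2.72 and 30.1 ± 3.47 (SD, n = 3 each; -0.14, limma adjusted p = 0.967). The most abundant H3 gene, Hist1h3e, had 8.004 ± 0.342 and 5.04 ± 1.08, and the most abundant H4 gene, Hist1h4c, had 7.68 ± 3.09 and 10.3 ± 1.996. Both were under the filter and untested, and the 3 Morrbid-/- libraries of Hist1h3e, at 6.08, 3.93 and 5.12, lay below its wild-type ones, at 8.04, 8.32 and 7.64. Of the 56 untested members, 1, Hist1h3e, separated the genotypes as lower and 4 as higher in Morrbid-/-. Among all genes tested 10.9% separated, so Hist1h3e is not set apart.

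With IFN-beta, 1 histone gene, Hist2h2ac, passed as higher in Morrbid-/- cells, and the result rested on few libraries. Of the 9 members tested, 1 was called higher and 0 lower, beside 5.25% of 9964 genes called higher and 10.1% called in either direction. The median log2 change of the 9 was 0.25, against 0.00 over all genes tested, with 6 positive and 3 negative. In none of the 9 did the genotypes separate, beside 15.2% of all genes tested.

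Hist2h2ac (chr3:96220413-96220880) held 69.6, 89.1, 31.5 and 82.0 normalized counts in wild type and 77.0, 112, 111 and 135 in Morrbid-/- libraries with IFN-beta. Of the Morrbid-/- libraries 3 of 4 lay above every wild-type one, and replicate 3 of wild type was far below the rest. Group means of 68.1 ± 25.7 and 109 ± 23.9 (SD, n = 4 per genotype) differed on the log2 scale by 0.74 (SE 0.23; limma adjusted p = 0.0400). Without wild-type replicate 3 it was 0.41 (limma adjusted p = 0.130), and the call was also lost without wild-type replicate 1 (adjusted p = 0.0650) and without Morrbid-/- replicates 2, 3 or 4 (adjusted p = 0.106, 0.0859 and 0.107). edgeR on recovered reads kept it (adjusted p = 0.0410), while DESeq2 (adjusted p = 0.203), limma without the trend (adjusted p = 0.233) and limma without the filter on low values (adjusted p = 0.226) did not.

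The partner gene Hist2h2be was not called. It held 7.08, 13.3, 10.5 and 11.7 in wild type against 10.1, 11.9, 7.19 and 9.12 in Morrbid-/- libraries, with the genotypes mixed throughout. The log2 difference was -0.13 (SE 0.36; limma adjusted p = 0.877). Of the 75-base stretches of Hist2h2ac, 34.5% (154) occur in transcripts of other genes, so part of its reads cannot be assigned by sequence alone. Of these, 72 occur in each of Hist2h2aa1 and Hist2h2aa2. A further partner, with 67, is Gm44492, a miRNA annotated at the same place on the opposite strand. No stretch of Hist2h2be is shared.

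Hist2h2bb and Hist1h1e, the gene of linker histone H1.4, had the next smallest p-values and were not called. Hist2h2bb held 9.44, 17.4, 12.8 and 21.5 in wild type and 30.2, 22.9, 18.9 and 35.6 in Morrbid-/-, and only the highest wild-type library reached above the lowest Morrbid-/- one. The log2 difference was 0.80 (SE 0.29; limma adjusted p = 0.0862), and 0.97 without wild-type replicate 4 (adjusted p = 0.0460). All of its 75-base stretches are shared with an annotated antisense RNA or a long noncoding RNA at the same place. Hist1h1e held 81.4, 48.1, 43.2 and 70.3 in wild type and 105, 114, 46.7 and 105 in Morrbid-/-, where 3 libraries lay above all wild-type ones and replicate 3 did not. Its difference was 0.57 (SE 0.23; limma adjusted p = 0.123), and 0.87 without Morrbid-/- replicate 3 (adjusted p = 0.00571). With the 16S rRNA share as a covariate it was 0.84 (limma adjusted p = 0.0314). Hist1h1e was also called with the replicate number as a block, as given at the end. Of the 75-base stretches of Hist1h1e 28.4% are shared, mostly with Hist1h2be, which overlaps it on the same strand.

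Hist1h1c and Hist3h2a, the most abundant members with IFN-beta, differed between genotypes by less than the spread of their libraries. The next in abundance, Hist2h2ac and Hist1h1e, had the larger differences given above. Hist1h1c held 573, 504, 409 and 518 in wild type and 483, 511, 437 and 560 in Morrbid-/-, a difference of 0.00 (SE 0.09; limma adjusted p = 0.986). Hist3h2a held 205, 228, 215 and 191 against 192, 148, 204 and 221, a difference of -0.15 (SE 0.11; adjusted p = 0.469). Of its 75-base stretches 30.6% are shared, mostly with Trim17, which overlaps it on the same strand. Hist1h1d, another linker histone gene, was at 16.9 ± 3.59 and 20.03 ± 1.19 (0.25, limma adjusted p = 0.613), the H4 gene Hist2h4 at 17.4 ± 3.78 and 21.6 ± 7.28 (0.26, adjusted p = 0.651), and Hist1h3e at 9.20 ± 4.12 and 5.68 ± 2.33 (SD, n = 4 each), under the filter.

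**Figure D2:**
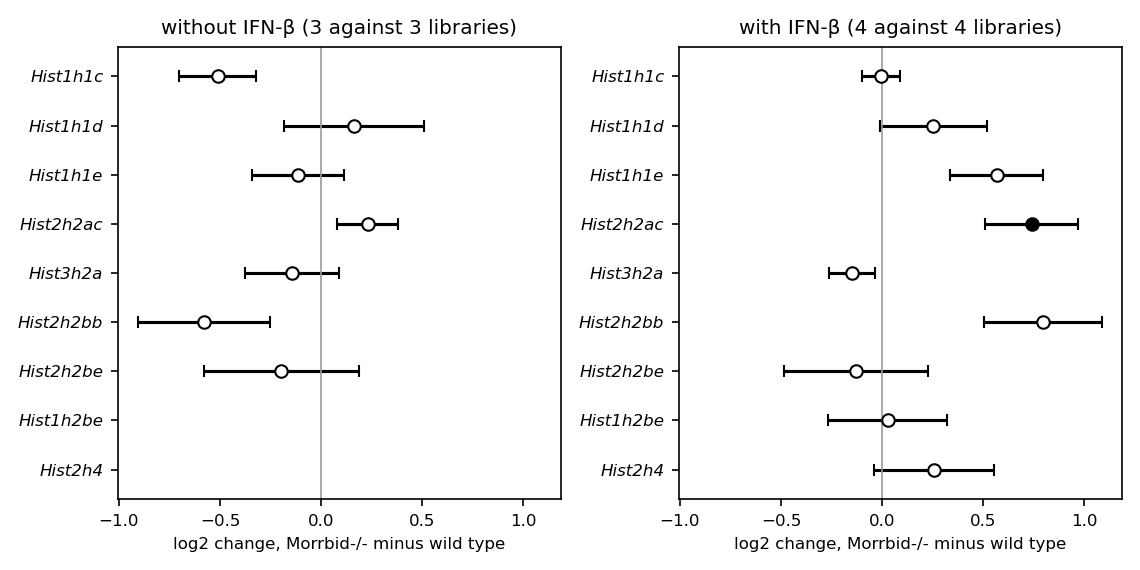
Log2 change (x axis, Morrbid-/- minus wild type, on the log2(normalized count + 1) scale) of each member tested, without and with IFN-beta. Points are the estimates and bars 1 SE; a filled point has a limma adjusted p under 0.05, which holds for Hist2h2ac with IFN-beta (0.74), and Hist1h2be and Hist2h4 were not tested without IFN-beta.

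Other measures differed between genotypes in the same libraries as Hist2h2ac. With IFN-beta the mitochondrial 12S rRNA was higher in Morrbid-/- (0.81, SE 0.17; limma adjusted p = 0.00257), as was Rmrp, an RNA without a poly(A) tail (0.59, SE 0.18; adjusted p = 0.0403). The 16S rRNA share was not higher, at 9.45% to 12.0% in wild type and 9.05% to 10.5% in Morrbid-/- libraries. Of the memory CD8 list 2 of 4 tested genes rose, beside 5.25% of all genes called higher. They were Ly6c2 (1.01, limma adjusted p = 0.000136) and Cd44 (0.89, adjusted p = 0.0400). The list summed to 1680 to 1926 in wild type and 1948 to 2381 in Morrbid-/- libraries. Ccr7 and Lef1, given above among the CD8 T cell markers, were called higher in the same libraries. Without IFN-beta 1 of 3 tested genes of that list rose, beside 0.635% of all genes called, Eomes (0.84, limma adjusted p = 0.0223). The part of these in the histone values was not tested. In bulk samples, fewer cells of a type and less RNA per cell cannot be told apart.

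The genotype change of no histone gene differed between the settings by the test of the difference itself, without a replicate block. With the replicate number as a block Hist1h1c passed, as given at the end. The values here are without it. Of 7 members tested in both, 0 passed, beside 1.33% of 9078 genes (interaction contrast in limma). The smallest p-value was that of Hist2h2bb, whose difference of log2 changes, with minus without IFN-beta, was 1.38 (SE 0.48; limma adjusted p = 0.186). For Hist1h1c it was 0.51 (SE 0.24; adjusted p = 0.407), for Hist1h1e 0.68 (SE 0.36; adjusted p = 0.474) and for Hist2h2ac 0.51 (SE 0.34; adjusted p = 0.594).

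Summed by class, the members overlapped between genotypes with 1 exception, the H4 genes with IFN-beta. Among single genes tested, the genotypes did not overlap for 15.2% with and 10.9% without IFN-beta, so 1 such sum is not set apart from that share. Without IFN-beta the wild-type H1 sums of 341, 268 and 206 stood against 283, 193 and 162 in Morrbid-/- libraries (log2 difference -0.37, SE 0.32). The H2A sum was 189, 149 and 155 against 226, 173 and 163 (0.18, SE 0.18), and the H2B sum 76.0, 63.5 and 60.4 against 75.0, 49.8 and 30.7 (-0.44, SE 0.38). In all of these the genotypes overlapped, as they did for H3 (-0.49, SE 0.25), H4 (0.31, SE 0.40) and all members together (-0.15, SE 0.24). These differences moved widely when 1 library was left out: from -0.59 to -0.19 for H1, 0.04 to 0.28 for H2A, -0.75 to -0.12 for H2B, -0.64 to -0.31 for H3, 0.03 to 0.61 for H4 and -0.35 to 0.00 for all members.

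With IFN-beta the wild-type H4 sums of 47.2, 59.4, 67.7 and 63.5 stood against 68.7, 77.0, 81.8 and 90.3 in Morrbid-/- libraries. The genotypes did not overlap, though the nearest libraries differed by about 1 normalized count. Group means of 59.4 ± 8.85 and 79.45 ± 9.03 (SD, n = 4 per genotype) differed on the log2 scale by 0.42 (SE 0.14). With only the H4 members past the filter, which leaves Hist2h4 alone, the difference was 0.26 and the genotypes overlapped. The H2B sum was 53.1, 60.4, 43.2 and 72.3 against 69.6, 88.9, 64.7 and 80.3 (0.41, SE 0.18), which overlapped. Overlap was also found for H1 (0.08, SE 0.14), H2A (0.10, SE 0.14), H3 (-0.16, SE 0.14) and all members (0.12, SE 0.11). No p is given for a sum over genes chosen as a group.

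**Figure D3:**
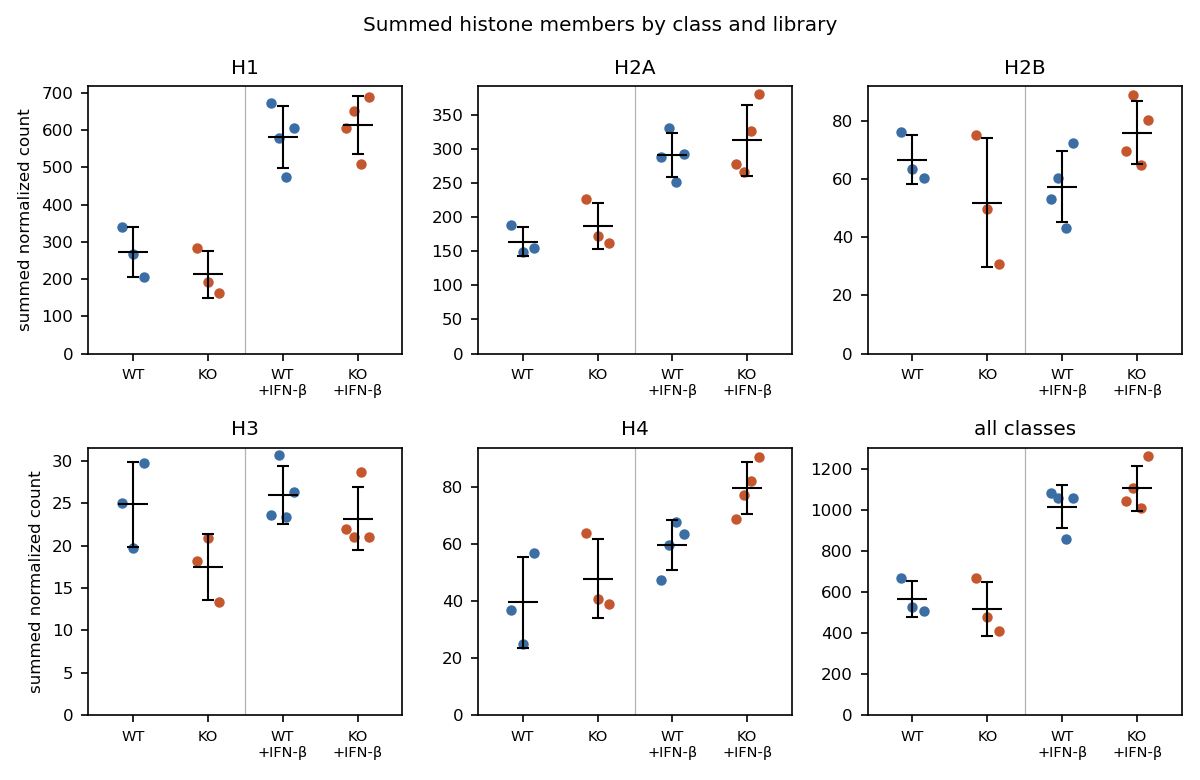
Summed normalized counts (y axis, from 0) of the members of each histone class and of all classes, for wild-type (WT) and Morrbid-/- (KO) libraries without and with IFN-beta. Points are libraries and bars the mean and SD. The H4 sum with IFN-beta, 47.2 to 67.7 in wild type and 68.7 to 90.3 in Morrbid-/-, is where the genotypes do not overlap, beside 15.2% of single genes tested.

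Read sharing with other transcripts limits how single genes can be read. A stretch of 75 bases, the length of a read, was counted as shared where it also occurs, on either strand, in a transcript of another gene. Such genes include other histone copies and also genes that overlap the member at the same place. All stretches were shared in 5 members, none in 4 and over 50% in 29, with a median of 42.4%. By class the median was 1.5% for H1, 77.6% for H2A, 36.75% for H2B, 59.0% for H3 and 24.6% for H4. Hist2h2aa1 and Hist2h2aa2 were shared in full, so their separate values carry little; how the authors counted such reads is not given in the sources used here.

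Hist1h4m and Hist1h4n are near-identical copies whose listed values ran in opposite directions. They were singled out after their values were seen, since both lay under the filter. They lie on chromosome 13 at chr13:21811746-21812150 and chr13:21831792-21832197 on opposite strands, and their annotated transcripts differ at 1 of 402 bases, G36A (Hist1h4m first, counted from 1 at the 5′ end of the transcript). That base lies 3 bases before the start codon and is in capitals here:
Hist1h4m: acagttttgtcttcGtcatgtctggtcgt
Hist1h4n: acagttttgtcttcAtcatgtctggtcgt
With IFN-beta, Hist1h4m had 5, 16, 19 and 5 reads in wild type and 0 in all 4 Morrbid-/- libraries. Hist1h4n had 2, 5, 5 and 5 reads in wild type and 12, 19, 10 and 23 in Morrbid-/-. Each gene thus separated the genotypes, and in opposite directions. Of the 28 untested members with IFN-beta, 1 separated as higher (Hist1h4n) and 2 as lower (Hist1h4m and Hist1h2ac). This stands beside 15.2% of all genes tested. Of the 75-base stretches 89.0% of those of Hist1h4m and 83.4% of those of Hist1h4n are shared; the part of read sharing in these values was not tested.

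Taken alone, both would pass once the filter is dropped. Hist1h4m had 45 reads against 0 in Morrbid-/-, a ratio of read shares for which the 95% exact interval ends at 0.0741 (limma adjusted p = 0.00479 and edgeR adjusted p = 5.08e-05 without the filter). Without the filter, limma called 4.61% and edgeR 7.89% of all genes. Hist1h4n, at 17 reads against 64, was 3.26-fold higher as a share of reads (95% exact interval 1.89 to 5.95, counting error only; limma adjusted p = 0.0476, edgeR adjusted p = 0.0177). The sum of the pair was 8.26, 21.5, 28.0 and 9.76 normalized counts in wild type and 10.996, 17.4, 8.99 and 20.98 in Morrbid-/- libraries. It overlapped between genotypes, at 62 reads against 64 (ratio 0.895, interval 0.621 to 1.29).

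**Figure D4:**
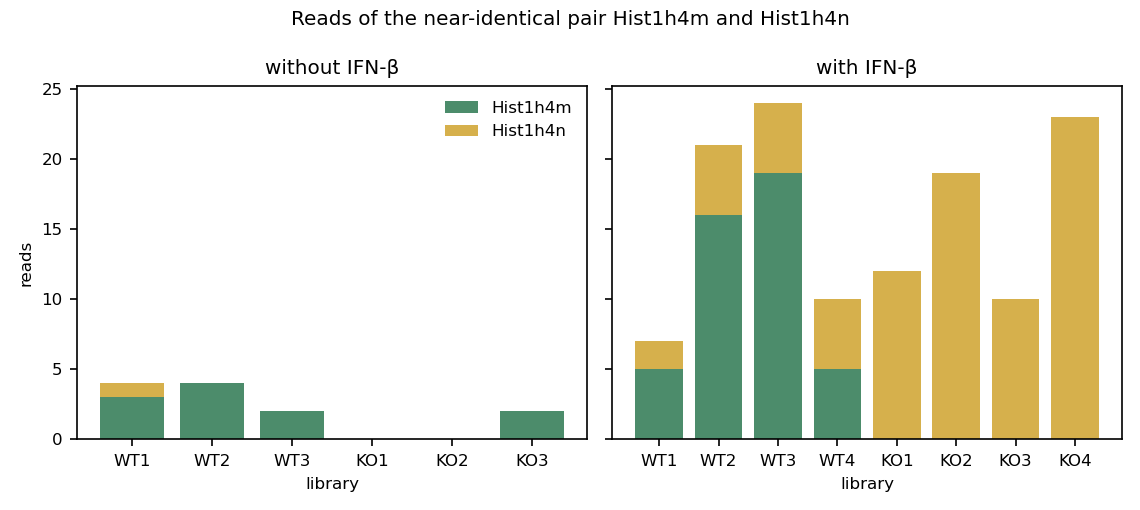
Reads (y axis, from 0) of Hist1h4m and Hist1h4n stacked in each wild-type (WT) and Morrbid-/- (KO) library, without and with IFN-beta. With IFN-beta all 64 reads of the Morrbid-/- libraries are listed under Hist1h4n, while the wild-type libraries hold 45 under Hist1h4m and 17 under Hist1h4n; the bar heights overlap.

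Without IFN-beta the same pair was near 0 reads. Hist1h4m had 3, 4 and 2 reads in wild type and 0, 0 and 2 in Morrbid-/-, and Hist1h4n had 1 read in all. Hist1h4m was thus present in 1 Morrbid-/- library of this setting. Neither gene passed without the filter (limma adjusted p = 0.755 and 0.832).

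Hist1h2ac, an H2A gene also singled out after its values were seen, ran in opposite directions in the settings. With IFN-beta it had 12 reads in wild type and 0 in Morrbid-/- libraries, a ratio whose 95% exact interval ends at 0.312 (limma adjusted p = 0.00718 without the filter, edgeR adjusted p = 0.0222). Without IFN-beta it held 0.894, 1.04 and 0 normalized counts in wild type and 4.05, 3.93 and 2.05 in Morrbid-/-, 2 reads against 9 (ratio 5.76, interval 1.19 to 54.8), which did not pass (limma adjusted p = 0.571). Whether the settings differ was not tested for this gene. Of the other untested members, Hist1h3h without IFN-beta passed in limma without the filter (adjusted p = 0.0287, beside 0.197% of all genes) on 1 read in each Morrbid-/- library and 0 in wild type, and not in edgeR (adjusted p = 0.894).

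Of 25 genes for transcription and processing of histone mRNA, 23 were tested without IFN-beta and 0 passed, beside 0.635% of all genes. With IFN-beta 24 were tested, of which 2 rose and 0 fell, near the 10.1% of all genes called. The 2 were Fip1l1, a polyadenylation factor (0.28, SE 0.07; limma adjusted p = 0.0166), and Upf1, a helicase that takes part in histone mRNA decay (0.24, SE 0.07; adjusted p = 0.0297). Slbp was at 145 ± 23.3 and 166 ± 24.1 with IFN-beta (0.19, limma adjusted p = 0.371) and at 98.5 ± 24.0 and 120 ± 18.8 without (0.29, adjusted p = 0.868). Npat, the coactivator of histone gene transcription, gave 0.01 with and -0.06 without IFN-beta, and Casp8ap2 gave -0.03 and -0.10. Lsm11, a subunit of the U7 snRNP that cuts histone pre-mRNA, gave -0.05 and 0.25, and its partner Lsm10 gave 0.34 with IFN-beta and was untested without it.

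Replacement and variant histones are mostly made outside DNA replication from polyadenylated mRNA, though H2afx also gives a stem-loop message. Of 8 tested in each table, 0 passed without IFN-beta, beside 0.635% of all genes, and 1 fell with it, beside 10.1% called in either direction. That was H3f3a, an H3.3 gene, at 670 ± 85.2 in wild type and 527 ± 33.6 in Morrbid-/- (-0.34, SE 0.08; limma adjusted p = 0.00943). H3f3b, the other H3.3 gene, was at 895 ± 66.8 and 1003 ± 85.5 (0.16, SE 0.07; adjusted p = 0.162). H2afx gave 0.59 with IFN-beta (adjusted p = 0.245) and 0.63 without (adjusted p = 0.868).

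S phase genes and histone chaperones were read against the same shares of all genes, 0.635% without and 10.1% with IFN-beta. Of the S phase list 18 of 27 genes were tested without IFN-beta, with 0 called, and 19 with it, with 2 called, a share near that of all genes: Mcm4 rose (0.30, SE 0.07; limma adjusted p = 0.00692) and Mcm6 fell (-0.25, SE 0.08; adjusted p = 0.0385). Both encode subunits of one helicase. Of genes that cycling cells express, Pcna, Top2a and Mki67 passed the filter in both tables, at a mean of 375, 37.5 and 37.0 in wild type without IFN-beta and 432, 91.3 and 60.7 with it. Rrm2 and Ccna2 were under the filter in both, at 3.51 and 1.15 without and 4.19 and 5.35 with IFN-beta. Of the chaperone list 15 genes were tested without IFN-beta and 16 with it, and 0 passed; Nasp, which carries H3 and H4, gave -0.26 (adjusted p = 0.775) and 0.15 (adjusted p = 0.343). Of the list of other RNAs without a poly(A) tail or kept in the nucleus, 8 were tested without IFN-beta and 0 passed, and 2 of 9 rose with it, the 12S rRNA and Rmrp given above.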

How the data were processed

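Total RNA libraries of sorted mouse CD8 T cells were analysed from the normalized counts that the authors deposited, a signal that is never negative, in 1 table per stimulation. Per the submitters' processing notes, the tools were DESeq2, featureCounts, STAR 2.5 and Trimmomatic, with GRCm38 and mm10 as builds. The annotation, the strand setting and how reads with several matches were counted: not given in the sources used here. Dividing each library by its smallest step gave whole reads for 100% of values within 0.01. Replicates differed by more than sampling noise (chi-square per degree of freedom 1.88 to 9.23). No label ties replicates to separate animals, so the p-values reflect only the spread among these samples, and that spread could be technical.

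Morrbid-/- was tested against wild type, 1 table at a time, in limma 3.58.1 (R 4.3.3, mean-variance trend) on log2(normalized count + 1), for genes with a mean of at least 10. Adjusted p-values are Benjamini-Hochberg values over all genes tested, with a threshold of 0.05; folds on this scale understate the change of low genes. The difference between settings was the interaction contrast of 1 fit of all 14 libraries. The scripts were tested on simulated data. edgeR 4.0.16 and DESeq2 1.42.0 on recovered reads were alternatives. Intervals cover counting error only.

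The members and gene lists were chosen with earlier results of these data known. Named members were those called in either table, the 5 with the smallest p in each table and the most abundant of each class; in other lists, up to 4 passing genes or else examples with the smallest p, with Slbp, Npat, Casp8ap2, Lsm10 and Lsm11 always named. Lengths and coordinates are those of RefSeq GRCm38.p6, which all 63 members matched, or of GENCODE vM21 exons where the RefSeq span exceeded 1000 bases.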

Additional observations from a re-analysis of the deposited data

Results flagged for a closer look

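In groups of 4, a library was set apart where its gap to the nearest other exceeded Dixon's 95% critical value as a share of the group's range, a limit that chance passes in about 1 in 20 groups; 30 groups of member values and class sums were looked at. The summed level of all members in wild-type replicate 3 with IFN-beta, 859 normalized counts, lay below the others at 1058 to 1083. Hist1h1e in Morrbid-/- replicate 3 with IFN-beta, at 46.7, lay below the others at 105 to 114. The H3 sum in Morrbid-/- replicate 3 with IFN-beta, at 28.8, lay above the others at 20.98 to 21.99. Hist2h4 in wild-type replicate 1 with IFN-beta, at 11.8, lay below the others at 18.6 to 19.9.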

How the results depend on the processing

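Without IFN-beta, the count of members called higher went from 0 to 1 without a filter (Hist1h3h), and the count called lower from 0 to 1 with edgeR on unfiltered reads and, leaving out 1 library at a time, from 0 to 1 (Hist1h1c, without Morrbid-/- replicate 1). With IFN-beta, the 1 member called higher (Hist2h2ac) became 0 under quantile normalization (adjusted p = 0.0646), limma without the trend and DESeq2. The count stayed at 1 in limma without a filter, where Hist1h4n (0.0476) took the place of Hist2h2ac (0.226), and became 2 with the 16S share as a covariate (Hist1h1e added) and 2 with edgeR on unfiltered reads (Hist1h4n added). Leaving out 1 library at a time gave 0 to 3 (3 without wild-type replicate 4: Hist2h2ac, Hist1h4n and Hist2h2bb). In place of Hist2h2ac, Hist1h4n was the 1 call without wild-type replicate 3, and Hist1h1e the 1 call without Morrbid-/- replicate 3. Over all libraries Hist1h4n was under the filter, at a mean of 9.57. It passed the filter in these fits because a wild-type library, where it is low, was left out. The filter thus selected it by the genotype difference, and its calls there are no added support. The 0 called lower became 2 without a filter and 2 with edgeR on unfiltered reads (Hist1h4m and Hist1h2ac). For the difference between settings, leaving out 1 library gave 0 to 1 called higher (Hist2h2bb, without Morrbid-/- replicate 1 without IFN-beta; limma adjusted p = 0.0494).

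Without its most abundant member, the H1 sum had a log2 difference of 0.029 without IFN-beta, against -0.37 with all H1 members. With IFN-beta the same step gave 0.49 against 0.08 for H1, 0.65 against 0.10 for H2A and 0.054 against -0.16 for H3. The sign thus turned for H1 without and H3 with IFN-beta. The log2 difference of the H4 sum with IFN-beta was 0.31 to 0.48 when 1 library was left out and 0.26 over members past the filter. Directions turned for members near 0: Hist1h1c with IFN-beta was 0.036 after rescaling to equal totals, 0.13 with the 16S covariate and -0.10 to 0.064 with 1 library left out, Hist1h2be was -0.0025 under quantile normalization and -0.22 to 0.19 with 1 left out, and without IFN-beta Hist1h1d was -0.26 to 0.46 and Hist1h1e -0.25 to 0.052. The cause was not tested. The edgeR fit without a filter and the 16S covariate for class sums were chosen after seeing the data.

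Replicate numbers were not shown to pair the libraries: deviations of same-numbered libraries correlated at -0.02 to 0.20 without and 0.00 to 0.14 with IFN-beta. With the replicate number as a block, 1 member was called lower without IFN-beta (Hist1h1c, limma adjusted p = 0.00224), 2 higher with it (Hist2h2ac, 0.00351, and Hist1h1e, 0.0165) and 1 higher for the difference (Hist1h1c, 0.0204). Wild-type replicates 1 and 3 without IFN-beta and 1, 3 and 4 with it correlated best with the Morrbid-/- library of their own number. Replicate 2 did not in either setting. Calls in the main fits thus hold only if the numbers do not mark pairs. Most members lie at a few reads, where a modest difference would not be detectable at this depth.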
